A study of Mus musculus with 12 samples.

Results

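The genes described here are members of the BCL2 family, which sets the threshold for mitochondrial cell death, in hearts that had lost *Gata4* or *Gata6*. The set is a list of 10 symbols: the survival genes *Bcl2*, *Bcl2l1* and *Mcl1*, the pore formers *Bax* and *Bak1*, the sensitizers and activators *Bad*, *Bid* and *Bcl2l11*, and the mitophagy receptors *Bnip3* and *Bnip3l*. Each gene was read by the probeset (a set of short probes for one transcript) with the highest mean over the 12 hearts among probesets that carry 1 gene symbol. Of the 10 genes, 9 had such a probeset, with 11 probesets between them, out of 19938 named genes and 35557 probesets on the array. *Bax* had none in the probe table and was not analysed here.

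Total heart RNA was taken from 12 mice labelled as 8 weeks old, with 1 mouse per array. The groups were 3 *Gata4*-deleted hearts, which carried loxP-flanked (fl/fl) *Gata4* alleles and the cre transgene, 2 *Gata4* floxed hearts without cre, 3 *Gata6*-deleted hearts with fl/fl *Gata6* alleles and cre, 2 *Gata6* floxed hearts without cre, and 2 cre hearts, which carried the transgene with wild-type *Gata4* and *Gata6*. The transgene is driven by a myosin heavy chain promoter, named α in the labels and β in the methods, and such a promoter is active in cardiomyocytes, so the other cells of the heart were not targeted. The labels name no stress or surgery for these hearts. Because whole hearts were measured, fewer cells of a type and less RNA per cell cannot be told apart.

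BCL2, BCL-XL (encoded by *Bcl2l1*) and MCL1 hold the pore formers BAX and BAK in check at the outer mitochondrial membrane. BH3-only proteins such as BAD, BID and BIM (encoded by *Bcl2l11*) are released or induced by stress and relieve that block or activate the pore formers, after which cytochrome c leaves and caspases are switched on. BNIP3 and NIX (encoded by *Bnip3l*) mark mitochondria for removal by autophagy and are known as hypoxia-induced genes. GATA4 is a zinc finger transcription factor known to bind GATA words in DNA and to support survival of cardiomyocytes, in part through *Bcl2* and *Bcl2l1*.

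Upstream sequence is shown for the 4 genes on which the results below turn, *Bcl2l1*, *Bcl2*, *Bak1* and *Bnip3*, so that words for GATA factors and for hypoxia-inducible factor can be seen in place. Each run is the 250 bases before an annotated transcript start in RefSeq on build GRCm38.p6, read 5′ to 3′ on the minus strand, and capitals mark a word that was searched for. For *Bcl2l1*, which has 3 annotated starts, the window of the third start is given because it was the only one of the 3 with a GATA word.
*Bcl2l1*, chr2:152828490-152828739: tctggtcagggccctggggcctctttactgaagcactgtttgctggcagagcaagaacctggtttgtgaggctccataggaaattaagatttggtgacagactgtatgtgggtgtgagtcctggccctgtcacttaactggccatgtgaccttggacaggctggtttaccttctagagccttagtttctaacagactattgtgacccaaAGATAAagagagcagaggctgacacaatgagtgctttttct
*Bcl2*, chr1:106714291-106714540: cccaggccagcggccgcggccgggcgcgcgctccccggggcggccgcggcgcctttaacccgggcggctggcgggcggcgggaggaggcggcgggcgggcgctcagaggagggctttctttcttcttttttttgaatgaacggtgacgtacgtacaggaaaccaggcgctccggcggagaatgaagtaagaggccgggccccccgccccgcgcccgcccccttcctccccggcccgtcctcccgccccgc
*Bak1*, chr17:27028628-27028877: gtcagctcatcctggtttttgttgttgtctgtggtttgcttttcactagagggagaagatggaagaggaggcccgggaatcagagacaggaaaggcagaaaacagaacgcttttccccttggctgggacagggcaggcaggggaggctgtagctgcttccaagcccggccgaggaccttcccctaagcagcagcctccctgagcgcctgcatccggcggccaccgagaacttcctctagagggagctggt
*Bnip3*, chr7:138909507-138909756: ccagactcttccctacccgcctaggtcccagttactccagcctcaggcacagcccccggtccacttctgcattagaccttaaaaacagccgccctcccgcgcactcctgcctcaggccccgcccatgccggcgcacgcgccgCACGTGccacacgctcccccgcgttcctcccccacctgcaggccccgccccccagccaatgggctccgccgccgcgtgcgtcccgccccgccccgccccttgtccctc

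Both strands were searched for AGATAA with its variant AGATAG and for TGATAA with its variant TGATAG, the words of GATA factors. The word of hypoxia-inducible factor searched in the same way was ACGTG. Any of the GATA words stood in 26.5% of 32851 windows of this length in the table and the hypoxia word in 16.6%. *Bcl2l1* carried AGATAA from -41 to -36 relative to the third start, and *Bid* carried TGATAG on the other strand from -42 to -37. *Bnip3* carried ACGTG from -107 to -103, which overlaps its reverse complement from -108 to -104, and *Bax* carried it from -8 to -4, which overlaps its reverse complement from -9 to -5. The windows of *Bcl2* and *Bak1* held none of these letters. *Bnip3l* had no entry among the upstream sequences. A match describes the letters of one short window and is not evidence of binding.

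The arrays were alike in scale, with medians of log2 signal from 5.609 to 5.663 and correlations between arrays of 0.9791 to 0.9913. The 8 cardiomyocyte markers averaged 12.90 to 13.01 on the log2 scale in every heart. The *Gata4* probeset read 9.25, 9.18 and 9.15 in *Gata4*-deleted hearts and 9.26 and 9.23 in *Gata4* floxed hearts, and the *Gata6* probeset read 8.98, 9.21 and 9.19 in *Gata6*-deleted hearts and 9.09 and 8.69 in *Gata6* floxed hearts. These probesets span the whole transcript and no exon values were used, so loss of the floxed exons was not checked by the arrays. All values below are log2 signals, in which a difference of 1 is a doubling, and differences come from one limma model over the 12 arrays. A gene is called changed at an adjusted p under 0.05 over all 35557 probesets. In comparisons with all 6 control hearts, the cre, *Gata4* floxed and *Gata6* floxed means weigh equally. The SE of these comparisons reflects spread within groups, so differences between the control groups do not enter it.

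*Bcl2l1*, the gene for the survival protein BCL-XL, was the one family member called with *Gata4* deletion. Its log2 signal was 8.14, 7.99 and 8.14 in *Gata4*-deleted hearts, against 7.15 and 7.37 in *Gata4* floxed hearts. It was 7.62, 7.64 and 7.41 in *Gata6*-deleted hearts, against 7.51 and 7.41 in *Gata6* floxed hearts. The cre hearts read 8.09 and 7.74. All *Gata4*-deleted hearts therefore lay above all floxed hearts of both lines, while cre heart 1 lay within their range and the *Gata6*-deleted hearts overlapped their floxed line.

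Relative to *Gata4* floxed hearts, *Bcl2l1* was higher with *Gata4* deletion by 0.83 on the log2 scale (SE 0.12, 1.77-fold, adjusted p = 0.0429), where 0.183% of all probesets were called. Against all 6 control hearts the difference was 0.54 (SE 0.10, 1.46-fold, adjusted p = 0.0384), where 0.83% were called. The methods' t-test, which pools the 6 controls as 1 group, did not call it (adjusted p = 0.466). Against the 2 cre hearts, which share the transgene with the deleted hearts, the difference was 0.17 (SE 0.12, adjusted p = 0.684, 95% interval -0.11 to 0.45), and this did not pass. The study itself listed *Bcl2l1* among genes it picked on these same arrays, so the call is not independent evidence of its direction. The study also measured *Bcl2l1* by qRT-PCR. It reported values above the floxed controls with *Gata4* deletion and, to a lesser degree, with *Gata6* deletion.

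The call against the floxed line was lost when any 1 of its 5 hearts was left out, although the difference stayed between 0.72 and 0.93 (adjusted p = 0.0954 to 0.223). Against all controls the adjusted p passed without cre heart 1 (0.0302) or *Gata6* floxed heart 1 (0.0488) and lay between 0.0542 and 0.176 without any of the other 7.

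*Gata6* deletion gave *Bcl2l1* a log2 difference of 0.10 from its floxed line (SE 0.12, adjusted p = 0.999, 95% interval -0.18 to 0.38). The difference between the changes of both deletions was 0.73 (SE 0.18, unadjusted p = 0.00221) and did not pass over all probesets (adjusted p = 0.516), where 0.0169% passed. Set directly against *Gata6*-deleted hearts, *Gata4*-deleted hearts were 0.53 higher (SE 0.11, adjusted p = 0.067), a comparison in which 1.08% of probesets were called. *Bcl2l1* thus passed in the *Gata4* line and not in the *Gata6* line, but the test of their difference did not pass.

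The control groups themselves differed in *Bcl2l1* signal. The cre hearts were 0.56 higher than the mean of the floxed lines (SE 0.12, unadjusted p = 0.000946, adjusted p = 0.206), where 0.0956% of probesets were called, and both cre hearts lay above all 4 floxed hearts. *Gata4* floxed hearts were 0.20 lower than *Gata6* floxed hearts (log2 difference -0.20, SE 0.14, adjusted p = 0.675), where 0.228% were called. *Gata6*-deleted hearts read 0.36 below cre hearts (log2 difference -0.36, SE 0.12, adjusted p = 0.33).

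**Figure D1:**
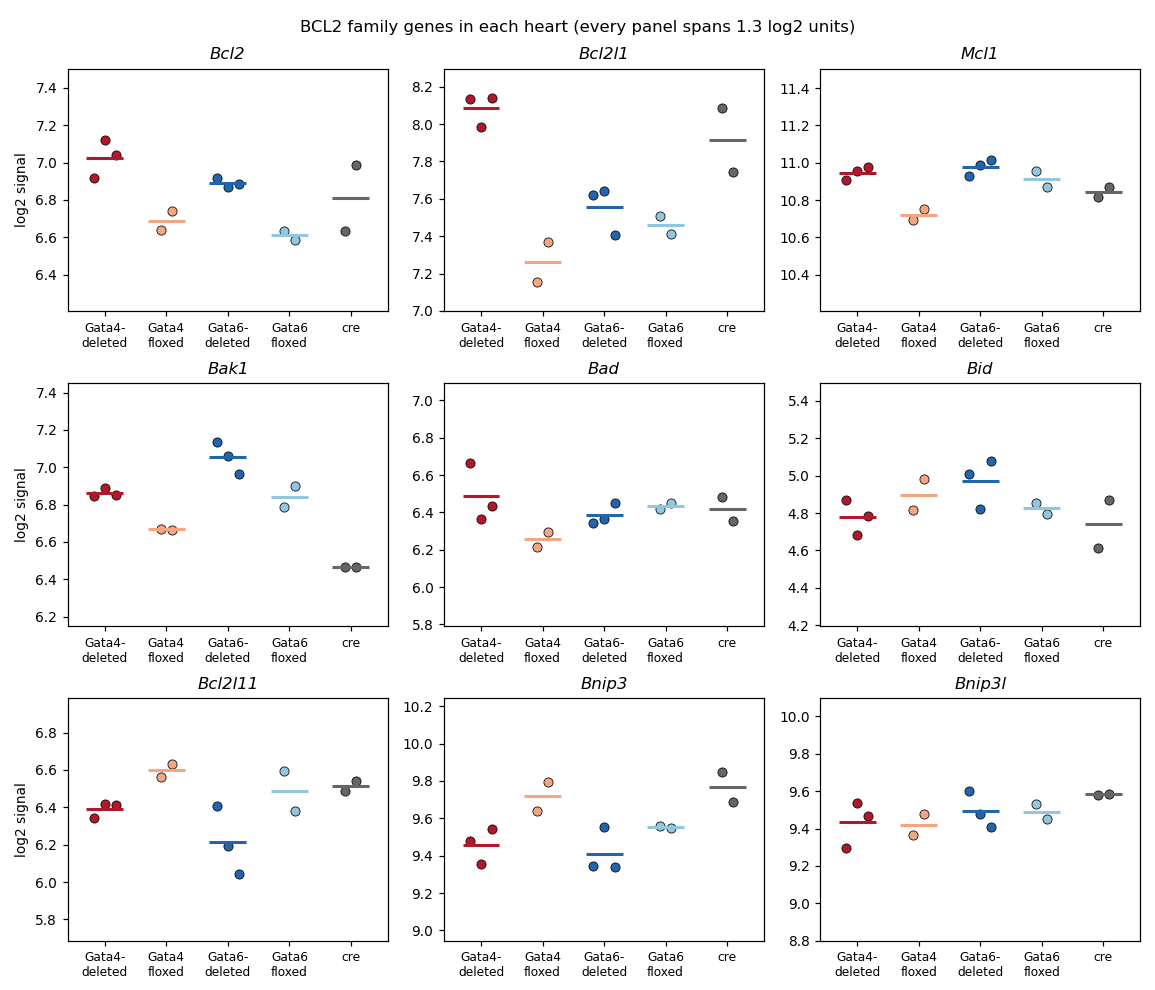
Log2 signal (y axis) of the 9 measured BCL2 family genes in each heart (points) by group (x axis), with the group mean as a line; every panel spans the same 1.3 log2 units. *Bcl2l1* read 7.99 to 8.14 in *Gata4*-deleted hearts, against 7.15 and 7.37 in *Gata4* floxed hearts, and *Bak1* read 6.97 to 7.14 in *Gata6*-deleted hearts, above all 6 control hearts.

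Some other transcripts were, like *Bcl2l1*, lowest in the *Gata4* floxed hearts. A list of 12 glucocorticoid response genes averaged a log2 signal of 8.35 to 8.44 in *Gata4*-deleted hearts, against 7.70 to 7.83 in *Gata4* floxed hearts. It averaged 8.16 to 8.32 in *Gata6*-deleted hearts, against 8.28 to 8.30 in *Gata6* floxed hearts, and 8.36 to 8.64 in cre hearts. The *Gata4* floxed hearts were thus the low group for this list as for *Bcl2l1*, and the cre hearts were high for both. The *Gata6* groups differed in this respect. Their list means were 8.24 (deleted) and 8.29 (floxed), against 8.40 in *Gata4*-deleted hearts. Their *Bcl2l1* means were 7.56 and 7.46, against 8.09. With *Gata4* deletion all 12 genes had positive log2 differences from the floxed line, where 50.83% of all probesets did, with a list median of 0.50. Of the 12, 3 were called, where 0.183% of all probesets were. The list was chosen with earlier results of these data known.

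The 3 called genes were *Per1*, a period gene of the circadian clock, higher by 1.45 (SE 0.11, adjusted p = 0.00261), *Tsc22d3*, which encodes the glucocorticoid-induced leucine zipper, by 1.03 (SE 0.07, adjusted p = 0.00234), and *Cebpb*, a leucine zipper transcription factor, by 0.74 (SE 0.10, adjusted p = 0.028). Set against cre hearts, *Per1* differed by 0.04 (adjusted p = 0.947), *Cebpb* by 0.05 (adjusted p = 0.903) and *Tsc22d3* by 0.31 (SE 0.07, unadjusted p = 0.00236, adjusted p = 0.151). The difference between floxed lines was -1.11 for *Per1* (SE 0.12, adjusted p = 0.0106) and -0.64 for *Tsc22d3* (SE 0.08, adjusted p = 0.0204), lower in *Gata4* floxed hearts. Of 12 measured clock genes, 4 were called higher (*Per1*, *Per2*, *Per3* and *Ciart*) and 2 lower (*Arntl* and *Nr1d1*) with *Gata4* deletion against the floxed line, where 0.183% of all probesets were called. The clock list averaged 8.20 to 8.26 in *Gata4*-deleted hearts, against 7.84 to 7.87 in *Gata4* floxed hearts. It averaged 8.17 to 8.19 in *Gata6*-deleted, 8.18 to 8.22 in *Gata6* floxed and 8.17 to 8.27 in cre hearts. Only the *Gata4* floxed hearts thus lay apart for this list, whose mean pools genes called higher and lower. The part of these transcripts in the *Bcl2l1* difference was not tested.

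Marker levels of other cell types also differed between groups, with none called against the floxed lines. The 12 macrophage markers averaged 7.14 to 7.22 in *Gata4*-deleted hearts, against 7.54 to 7.68 in *Gata4* floxed hearts and 7.38 to 7.49 in cre hearts, and all 12 had negative differences from the floxed line, with none called and 9 at an unadjusted p under 0.05, where 9.42% of all probesets were. Array signals have no true zero, so no marker could be read as absent. *Gata6*-deleted hearts averaged 7.50 to 7.52 for this list, against 7.41 to 7.65 in *Gata6* floxed hearts. The 4 atrial myocyte markers (*Sln*, *Myl7*, *Myl4* and *Nppa*) averaged 8.05 to 8.70 in *Gata4*-deleted hearts, against 8.78 to 8.87 in *Gata4* floxed hearts, with none called. They averaged 8.51 to 9.01 in *Gata6*-deleted hearts, against 8.77 to 9.17 in *Gata6* floxed hearts, and 8.16 to 8.43 in cre hearts. The *Gata4*-deleted and cre hearts, high for *Bcl2l1*, were thus all below the floxed hearts of both lines for this list. *Gata6*-deleted hearts 2 and 3 (8.51 and 8.69) were below them as well, with lower *Bcl2l1* signals of 7.64 and 7.41. The part of either list in the family's differences was not tested.

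**Figure D2:**
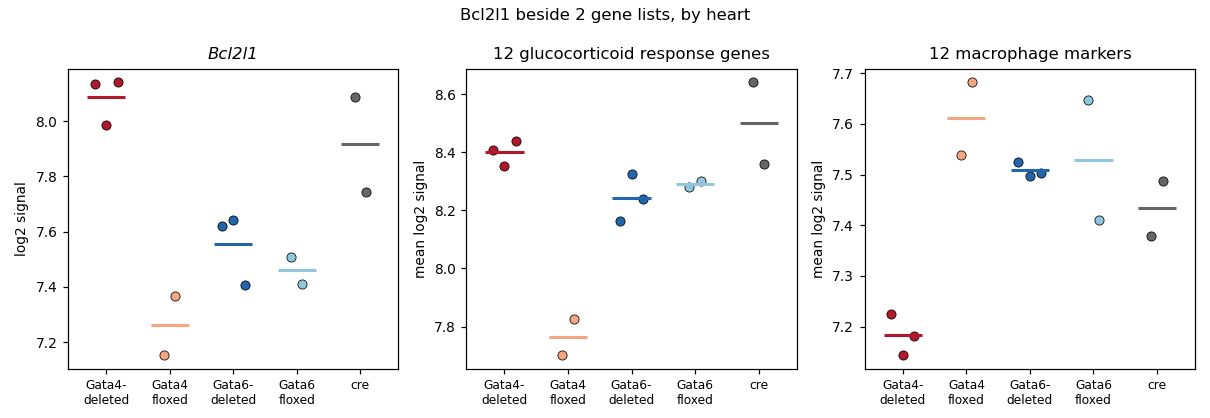
*Bcl2l1* log2 signal (left) beside the mean log2 signal of 12 glucocorticoid response genes (middle) and 12 macrophage markers (right) in each heart, by group, with group means as lines and separate y axes. The *Gata4* floxed hearts are lowest for *Bcl2l1* and for the glucocorticoid list (7.70 to 7.83), and the *Gata4*-deleted hearts are lowest for the macrophage list (7.14 to 7.22).

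*Bcl2*, the founding survival gene of the family, read higher in both deletions than in the floxed lines but was called in neither. It read 6.92, 7.12 and 7.04 in *Gata4*-deleted hearts, against 6.64 and 6.74 in *Gata4* floxed hearts. It read 6.92, 6.87 and 6.88 in *Gata6*-deleted hearts, against 6.63 and 6.59 in *Gata6* floxed hearts. The cre hearts read 6.63 and 6.99. Every deleted heart lay above every floxed heart, but cre heart 2 lay within the range of *Gata4*-deleted hearts and above all *Gata6*-deleted hearts.

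The log2 difference of *Bcl2* was 0.34 with *Gata4* deletion (SE 0.11, unadjusted p = 0.0109, adjusted p = 0.323) and 0.28 with *Gata6* deletion (SE 0.11, unadjusted p = 0.0269, adjusted p = 0.999), each against its floxed line. Against all controls it was 0.32 with *Gata4* deletion (adjusted p = 0.138) and 0.19 with *Gata6* deletion (adjusted p = 0.576). The changes of both deletions differed by 0.06 (SE 0.15, 95% interval -0.28 to 0.40).

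*Mcl1*, the remaining survival gene and one that cardiomyocytes are known to need, had the highest signal of the 9 probesets, which are not comparable in level between genes. It read 10.91, 10.96 and 10.98 in *Gata4*-deleted hearts, against 10.69 and 10.75 in *Gata4* floxed hearts. It read 10.93, 10.99 and 11.02 in *Gata6*-deleted hearts, against 10.95 and 10.87 in *Gata6* floxed hearts and 10.82 and 10.87 in cre hearts. Of the deleted and floxed pairs only that of *Gata4* was separated, and there the 2 floxed hearts were the lowest of the 12. Deleted hearts of both lines also lay above the cre hearts. The log2 differences from cre hearts were 0.10 with *Gata4* deletion (adjusted p = 0.638) and 0.14 with *Gata6* deletion (adjusted p = 0.529).

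*Mcl1* differed from the floxed line by 0.23 with *Gata4* deletion (SE 0.07, adjusted p = 0.29) and by 0.07 with *Gata6* deletion (SE 0.07, adjusted p = 0.999). Against all controls the log2 difference was 0.12 (adjusted p = 0.388) with *Gata4* deletion and 0.15 (adjusted p = 0.408) with *Gata6* deletion. *Gata4* floxed hearts read below *Gata6* floxed hearts (log2 difference -0.19, SE 0.07, adjusted p = 0.408).

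*Bak1*, the pore former that was measured, was called with *Gata6* deletion against the mean of the control groups. The methods' t-test, which pools the 6 controls as 1 group, did not call it (adjusted p = 0.578). It read 7.14, 7.06 and 6.97 in *Gata6*-deleted hearts, against 6.78 and 6.90 in *Gata6* floxed hearts. It read 6.85, 6.89 and 6.85 in *Gata4*-deleted hearts, against 6.67 and 6.67 in *Gata4* floxed hearts. The cre hearts were the lowest of the 12, at 6.46 and 6.46. The *Gata6*-deleted hearts were the highest 3 of the 12, and the *Gata4*-deleted hearts lay between the *Gata6* floxed hearts.

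*Bak1* was higher in *Gata6*-deleted hearts than in all 6 control hearts by 0.40 (SE 0.06, 1.32-fold, adjusted p = 0.0171), where 0.399% of probesets were called, and higher than in cre hearts by 0.59 (SE 0.07, adjusted p = 0.00761), where 0.515% were called. Against its own floxed line, the log2 difference was 0.21 (SE 0.07, unadjusted p = 0.0164, adjusted p = 0.941), a comparison with 0 probesets called (0.0%) by limma and by the methods' t-test after adjustment, and 1745 at an unadjusted p under 0.05 by limma. The cre hearts were low for this gene and read 0.29 below the floxed lines (log2 difference -0.29, SE 0.07, adjusted p = 0.296).

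Leaving out 1 heart kept the difference from all controls between 0.36 and 0.44. The call was lost without cre heart 1 (adjusted p = 0.0549), *Gata4* floxed heart 1 (0.0556), *Gata4* floxed heart 2 (0.0539), *Gata6*-deleted heart 1 (0.086) or *Gata6*-deleted heart 2 (0.0926). Against cre hearts it was lost without cre heart 1 (difference 0.59, adjusted p = 0.101) or cre heart 2 (difference 0.59, adjusted p = 0.0596).

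With *Gata4* deletion *Bak1* differed from the floxed line by 0.20 (SE 0.07, adjusted p = 0.421), from all controls by 0.20 (adjusted p = 0.169) and from cre hearts by 0.40 (SE 0.07, adjusted p = 0.0603), where 0.391% were called. *Gata4*-deleted hearts read 0.19 below *Gata6*-deleted hearts (log2 difference -0.19, SE 0.07, adjusted p = 0.273), and the changes of the deletions from their floxed lines differed by -0.02 (SE 0.10, 95% interval -0.25 to 0.21). Smooth muscle and pericyte markers averaged 8.94 to 9.29 in *Gata6*-deleted hearts and 8.95 to 9.21 in *Gata4*-deleted hearts, against 8.75 to 8.93 in the control hearts, and fibroblast markers averaged 9.45 to 9.67 in *Gata6*-deleted hearts, against 9.19 to 9.43 in *Gata6* floxed, 9.37 to 9.78 in *Gata4* floxed and 9.12 to 9.32 in cre hearts. The fibroblast markers of *Gata6*-deleted hearts thus overlapped those of *Gata4* floxed hearts. The part of these markers in the *Bak1* difference was not tested.

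**Figure D3:**
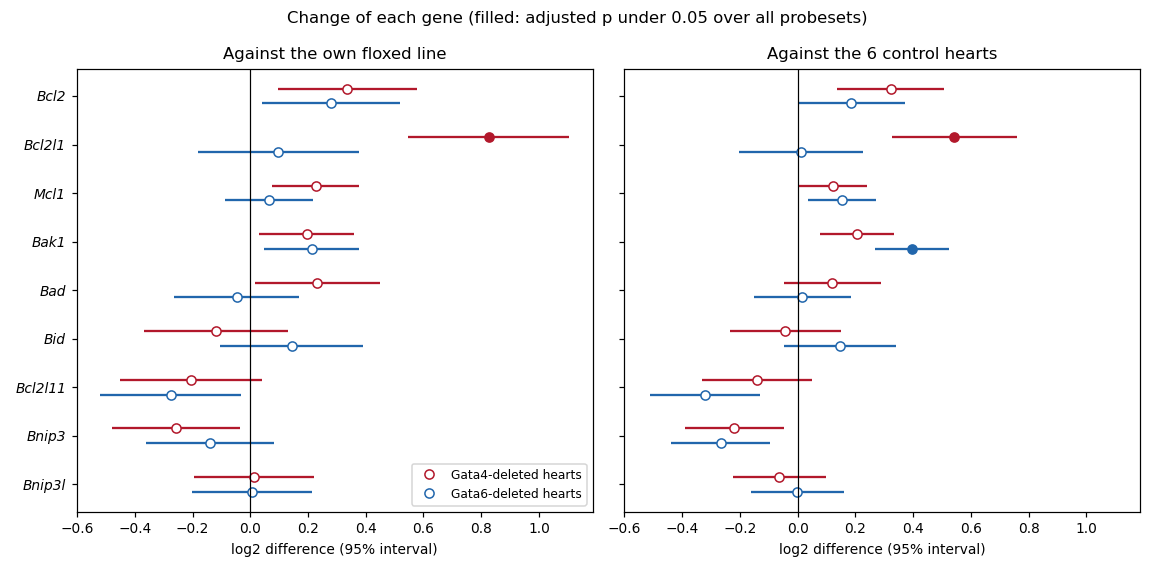
Log2 difference (x axis) of each measured gene with its 95% interval, *Gata4*-deleted hearts in red and *Gata6*-deleted hearts in blue, against the own floxed line (left) and against the 6 control hearts (right); filled points passed an adjusted p under 0.05. The filled points are *Bcl2l1* with *Gata4* deletion (0.83 and 0.54) and *Bak1* with *Gata6* deletion against all controls (0.40).

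The BH3-only genes were not called in any comparison. *Bad*, whose product neutralizes BCL-XL and BCL2 until it is phosphorylated, read 6.67, 6.37 and 6.44 in *Gata4*-deleted hearts, against 6.22 and 6.30 in *Gata4* floxed hearts. The *Gata4* pair was separated with a difference of 0.23 (SE 0.10, adjusted p = 0.487), whereas *Gata6*-deleted hearts (6.34, 6.37 and 6.45) overlapped *Gata6* floxed hearts (6.42 and 6.45), with a difference of -0.05. The cre hearts read 6.48 and 6.36.

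*Bcl2l11* encodes BIM, an activator of the pore formers that is bound by all the survival proteins. It read 6.35, 6.42 and 6.41 in *Gata4*-deleted hearts, against 6.56 and 6.63 in *Gata4* floxed hearts, and 6.41, 6.19 and 6.04 in *Gata6*-deleted hearts, against 6.59 and 6.38 in *Gata6* floxed hearts. The cre hearts read 6.49 and 6.54. It had a negative log2 difference in both lines, -0.21 with *Gata4* deletion (SE 0.11, adjusted p = 0.626) and -0.28 with *Gata6* deletion (SE 0.11, adjusted p = 0.999). Against all controls the difference with *Gata6* deletion was -0.32 (SE 0.08, unadjusted p = 0.00383, adjusted p = 0.235).

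*Bid*, which links death receptors to mitochondria once caspase-8 cuts it, had the dimmest probeset, at the 35.4th percentile of mean signal. It read 4.87, 4.68 and 4.78 in *Gata4*-deleted hearts, against 4.81 and 4.98 in *Gata4* floxed hearts. *Gata6*-deleted hearts read 5.01, 4.82 and 5.08, against 4.86 and 4.80 in *Gata6* floxed hearts and 4.61 and 4.87 in cre hearts. All groups overlapped their controls, with log2 differences of -0.12 (SE 0.11) for *Gata4* deletion and 0.14 (SE 0.11) for *Gata6* deletion.

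*Bnip3* and *Bnip3l*, the mitophagy receptors, had bright probesets, and neither was called. *Bnip3* read 9.48, 9.35 and 9.54 in *Gata4*-deleted hearts, against 9.64 and 9.79 in *Gata4* floxed hearts. It read 9.34, 9.55 and 9.34 in *Gata6*-deleted hearts, against 9.56 and 9.55 in *Gata6* floxed hearts and 9.85 and 9.69 in cre hearts. The *Gata4*-deleted hearts lay below all 6 control hearts, by a narrow margin from the *Gata6* floxed hearts.

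The log2 difference of *Bnip3* was -0.26 with *Gata4* deletion against the floxed line (SE 0.10, adjusted p = 0.437) and -0.22 against all controls (SE 0.08, adjusted p = 0.284). With *Gata6* deletion it was -0.14 against the floxed line (SE 0.10, adjusted p = 0.999) and -0.27 against all controls (SE 0.08, adjusted p = 0.282). The 14 hypoxia response genes averaged 8.45 to 8.46 in *Gata4*-deleted hearts, against 8.33 to 8.48 in *Gata4* floxed hearts, and 8.31 to 8.36 in *Gata6*-deleted hearts, against 8.25 to 8.30 in *Gata6* floxed hearts and 8.36 to 8.37 in cre hearts.

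The *Bnip3* value depends on the probeset. The dimmer one, 10568785, read 8.78, 8.66 and 8.91 in *Gata4*-deleted hearts, against 8.84 and 9.06 in *Gata4* floxed hearts, with a log2 difference of -0.17, and gave 0.08 for *Gata6* deletion. The brighter one, 10414269, carries the *Bnip3* symbol, but its 10 nearest named neighbours in ID order are all genes of chromosome 14, while *Bnip3* lies on chromosome 7, where all 10 neighbours of the dimmer one lie. Both correlated with a Pearson r of 0.778 over the 12 hearts, which share scaling and source, as a description. Whether the brighter probeset reads *Bnip3* or a near-identical copy was not tested, so its values are uncertain.

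*Bnip3l* showed the same layout, with the brighter probeset 10394800 among 10 neighbours of chromosome 12 and the gene on chromosome 14. It read 9.30, 9.54 and 9.47 in *Gata4*-deleted hearts, against 9.37 and 9.48 in *Gata4* floxed hearts, and 9.60, 9.48 and 9.41 in *Gata6*-deleted hearts, against 9.53 and 9.45 in *Gata6* floxed hearts and 9.58 and 9.59 in cre hearts. Deleted and floxed hearts overlapped in both lines, with log2 differences of 0.01 (95% interval -0.19 to 0.22) for *Gata4* deletion and 0.01 (95% interval -0.20 to 0.21) for *Gata6* deletion. The other probeset, 10421003, gave 0.02 for each deletion and correlated with the first at r 0.981.

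**Figure D4:**
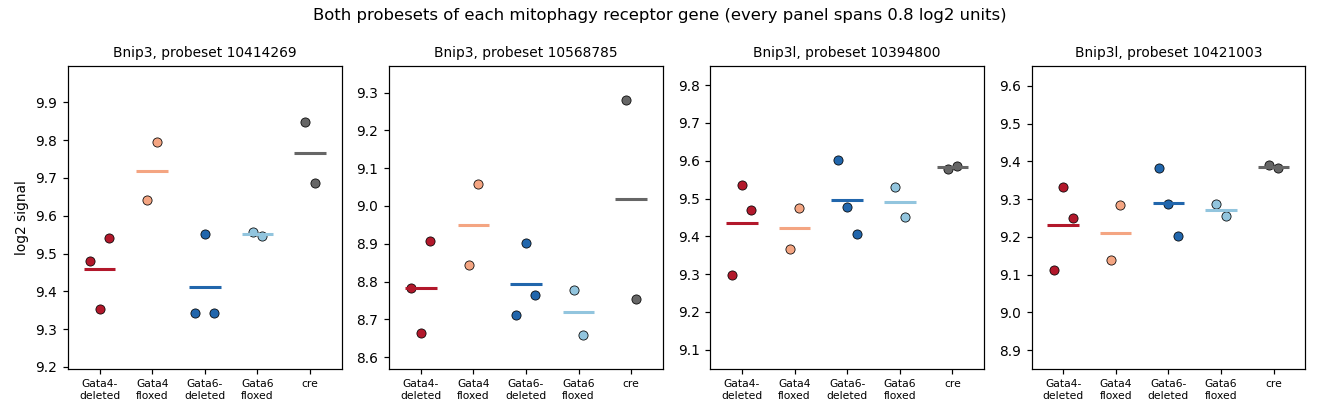
Log2 signal (y axis) of both probesets of *Bnip3* and of *Bnip3l* in each heart by group, with group means as lines; every panel spans 0.8 log2 units. The brighter *Bnip3* probeset gave -0.26 and the dimmer -0.17 for *Gata4* deletion, and both *Bnip3l* probesets stayed within 0.02 of no change.

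Across the 9 measured genes, *Gata4* deletion gave 6 positive log2 differences from the floxed line with a median of 0.20, where the median of all probesets was 0.003 and 5% to 95% of them lay between -0.35 and 0.34. Of the 9, 1 was called, 6 had an unadjusted p under 0.05, 5 lay above both *Gata4* floxed hearts and 2 below both. Among all probesets, 0.183% were called, 9.42% had an unadjusted p under 0.05, 12.7% lay wholly above and 13.0% wholly below. With dim probesets left out, *Bid* among them, 243 of 17778 were called and 2389 had an unadjusted p under 0.05 by limma. *Gata6* deletion gave 6 positive differences with a median of 0.07, 0 calls, 3 at an unadjusted p under 0.05, 2 genes wholly above and 0 below, where the shares of all probesets were 4.91% at an unadjusted p under 0.05, 9.89% above and 9.23% below. Against cre hearts, *Gata4* deletion gave a median of 0.07 and 0 of the 9 called, where 0.391% of probesets were called. *Gata6* deletion gave a median of -0.03 against cre hearts and 1 of the 9 called, *Bak1*, where 0.515% of probesets were called. *Gata4* floxed hearts lay wholly above *Gata6* floxed hearts for 2 of the 9 and wholly below for 4, where 7183 and 7103 of 35557 probesets did.

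Against all 6 control hearts, no gene lay wholly above them with *Gata4* deletion and 1, *Bnip3*, wholly below, where the shares were 2.49% and 3.3%. That count rests on the brighter *Bnip3* probeset, and with the dimmer one, 10568785, the *Gata4*-deleted hearts overlapped the controls (log2 difference -0.11, SE 0.12, adjusted p = 0.761). With *Gata6* deletion 1, *Bak1*, lay wholly above and 0 below, where they were 1.61% and 1.88%. The methods' t-test called none of the 9 genes after adjustment in the comparisons in which it was run. *Gata4*-deleted and *Gata6*-deleted hearts were set against the same 6 control hearts in these counts.

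Further genes of cell death and survival came from 10 lists with 109 genes, of which 98 had a probeset. With *Gata4* deletion 0 of the 98 were called higher and 1 lower against the floxed line, 18 had an unadjusted p under 0.05, and the median log2 difference was -0.03, where 0.183% of all probesets were called and 9.42% had such a p. With *Gata6* deletion 0 were called by limma or the methods' t-test, 1 had an unadjusted p under 0.05 (4.91% of all probesets did), and the median was 0.01. The called gene was *Pim1*, a kinase that phosphorylates BAD, lower by 0.92 on the log2 scale with *Gata4* deletion (log2 difference -0.92, SE 0.12, adjusted p = 0.0198), and at 0.04 with *Gata6* deletion. Against all controls *Pim1* differed by -0.48 (adjusted p = 0.0514), and *Gata4* floxed hearts read above *Gata6* floxed hearts for it by 0.78 (SE 0.13, adjusted p = 0.0521).

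Among death receptor and necroptosis genes, 10 of 11 were measured and none was called against the floxed line. *Fas*, a death receptor, had a log2 difference of 0.60 with *Gata4* deletion (SE 0.12, adjusted p = 0.119) and of 0.02 from cre hearts. *Tnfrsf10b*, the mouse TRAIL receptor, was called against all controls, higher by 0.45 in *Gata4*-deleted hearts (SE 0.07, adjusted p = 0.0265), with 0.29 against the floxed line (adjusted p = 0.335) and 0.11 with *Gata6* deletion. The tumour necrosis factor receptors *Tnfrsf1a* and *Tnfrsf1b* both gave -0.24 with *Gata4* deletion.

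In the apoptosome and caspase list, 9 of 11 genes were measured and none was called. *Casp12*, a caspase of the endoplasmic reticulum, gave 0.82 with *Gata4* deletion (SE 0.25, adjusted p = 0.312) and 0.43 with *Gata6* deletion. *Apaf1*, the scaffold that cytochrome c assembles, gave 0.12, while *Casp4* gave -0.36 and *Casp8*, the initiator that cuts BID, gave -0.31. Inhibitors of apoptosis and their antagonists (9 of 9 measured) had none called, from *Birc5* at -0.23 and *Diablo* at -0.17 to *Birc6* at 0.01 and *Xiap*, the caspase inhibitor, at 0.19.

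The other BCL2 family genes also had none called with *Gata4* deletion. Of 6 survival members, 3 were measured, with *Bcl2a1c* at -0.25 and *Bcl2l10* at 0.30. All 10 other death and atypical members were measured, from *Bik* at -0.22 and *Bcl2l12* at -0.09 to *Hrk* at 0.23 and *Bok* at 0.26. Channel and permeability pore genes (8 of 8) lay between *Tspo* at -0.15 and *Slc25a5* at -0.13 at the low end and *Hk2* at 0.02 and *Vdac2* at 0.06 at the high end.

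Autophagy adaptors (12 of 14 measured) had none called, with *Map1lc3a* at -0.39 (SE 0.10, adjusted p = 0.193) and *Ulk1* at -0.23, against *Gabarapl1* at 0.13 and *Sqstm1* at 0.15. Upstream regulators (9 of 12) ran from *Ddit3* at -0.10 and *Stat3* at -0.04 to *E2f1* at 0.30 and *Foxo3*, a factor known to induce *Bcl2l11*, at 0.31. Of 14 kinases, ligases and partners, *Akt1*, which phosphorylates BAD, gave -0.34 (SE 0.09, adjusted p = 0.226), while *Bag1* gave 0.09 and *Pim2* gave 0.12.

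Hypoxia response genes (14 of 14 measured) had none called against the floxed line, from *Vegfa* at -0.22 and *Pdk1* at -0.18 to *P4ha1* at 0.35 and *Ddit4* at 0.76 (SE 0.23, adjusted p = 0.313). *Pdk1* was called higher with *Gata4* than with *Gata6* deletion by 0.56 (SE 0.08, adjusted p = 0.0127), and *Gata4* floxed hearts were higher than *Gata6* floxed hearts by 0.72 (SE 0.10, adjusted p = 0.026).

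**Figure D5:**
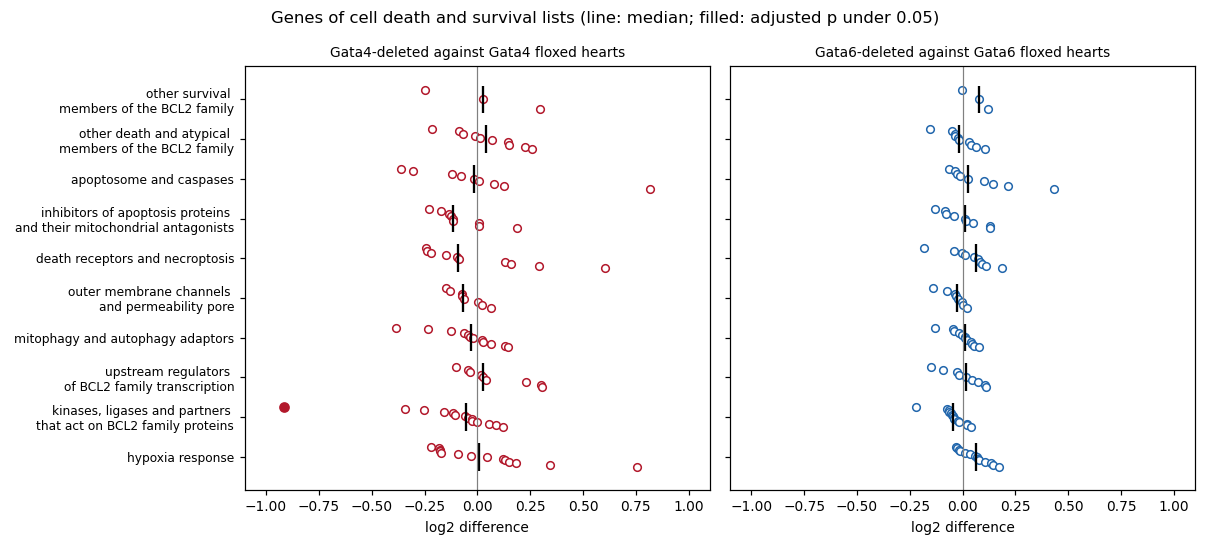
Log2 difference (x axis) of the 98 measured genes of 10 cell death and survival lists (rows), for *Gata4* deletion (left) and *Gata6* deletion (right) against the own floxed line; each point is a gene, the line is the list's median, and filled points passed an adjusted p under 0.05. The one filled point is *Pim1* at -0.92 with *Gata4* deletion.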

How the data were processed

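Hearts of 12 mice were profiled with Affymetrix mouse gene ST arrays. The deposited values are log2 signals that the authors made by RMA (background correction, normalization between arrays, summary per probeset), with version and annotation not given in the sources used here. RMA is known to compress fold changes of dim probesets. A second deposited table of ratios to a baseline was not used, since none of its 12 columns could be matched to a sample by the labels. Symbols came from the platform's probe table (23410 probesets, 21789 with 1 symbol, 1621 with several, 12147 not listed but kept in the tests).

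A group-means model over 12 arrays was fitted with limma (version 3.58.1, R 4.3.3), whose residual degrees of freedom were 7, prior degrees of freedom 2.498 and prior SD 0.1244. Tests were two-sided with Benjamini-Hochberg adjustment over 35557 probesets. Comparisons were each deletion against its floxed line, against the 6 control hearts and against cre hearts, both deletions against each other, the difference of their changes, cre against floxed hearts and floxed against floxed hearts. The fit was tested on simulated data. The labels call the samples biological replicates, and the number of arrays limits the precision.

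The members and lists were chosen with earlier results of these data known. Named were all members and, from other lists, genes that passed in a deletion against its floxed line, all controls or the other deletion, and up to 2 at each end of a list with *Gata4* deletion. *Acta2*, *Adgre1* and *Pf4*, cell type markers that passed, are given in the closing section. Other genes, if named, were picked with their values known. Alternatives changed the normalization (quantile), the centring (median), the probesets tested (dim ones left out, only those with 1 symbol, means per gene), the model (replicate block, trend and robust prior, only the groups compared), the threshold (0.1), the test (the t-test of the methods) and the hearts (each left out in turn). Upstream sequences came from RefSeq, where 9 of 10 members matched.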

Additional observations from a re-analysis of the deposited data

How the results depend on the processing

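The *Bcl2l1* difference between *Gata4*-deleted and *Gata4* floxed hearts was no longer called with the replicate number as a block (0.85, adjusted p = 0.149), with only the groups compared (0.83, adjusted p = 0.198) or by the methods' t-test (0.83, adjusted p = 0.454), with adjusted p from 0.0052 to 0.454 over 10 alternatives, and lay between 0.72 and 0.93 without 1 heart. Against all controls it was 0.57 with the block (adjusted p = 0.133), 0.54 with only the groups compared (0.0809) and 0.54 by the t-test (0.466), with a range of 0.00735 to 0.466, and 0.48 to 0.60 without 1 heart. *Bak1* in *Gata6*-deleted against all control hearts was 0.42 with the block (adjusted p = 0.0854), 0.40 with only the groups compared (0.0802) and 0.40 by the t-test (0.578), with a range of 0.00364 to 0.578, and 0.36 to 0.44 without 1 heart. Against cre hearts it was 0.59 with only the groups compared (0.182) and 0.59 by the t-test (0.414), with a range of 0.00199 to 0.414, and 0.55 to 0.63 without 1 heart. *Bcl2l1* in *Gata4*-deleted against *Gata6*-deleted hearts (0.53) passed with dim probesets left out, a trend and robust prior, only probesets with 1 symbol, the mean of a gene's probesets or the threshold of 0.1, with adjusted p from 0.02 to 0.24. *Bak1* in *Gata4*-deleted against cre hearts passed under those and with quantile normalization (0.41; 0.40 under the others), with adjusted p from 0.0171 to 0.259. Same-numbered hearts correlated at -0.09712 to 0.1092 in their deviations from the group means (21 pairs, 1 over 0.1), so no strong shared deviation was seen over the array. In the smallest groups these deviations are mirror images, so the pairs are not independent. A correlation over the array can also miss a shift in few genes. Whether the numbers pair the hearts therefore cannot be decided from these correlations.

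Small differences changed sign. *Bnip3l* was -0.0048 for *Gata6*-deleted against floxed hearts with quantile normalization and 0.0111 against all controls with the replicate block. Without 1 heart, *Bnip3l* ranged from -0.048 to 0.05 and from -0.056 to 0.042 in those comparisons, from -0.041 to 0.082 for *Gata4*-deleted against floxed hearts, from -0.11 to 0.0077 against *Gata6*-deleted hearts and from -0.11 to 0.0053 against all controls. *Bcl2l1* ranged from -0.046 to 0.087 for *Gata6*-deleted against all controls and from -0.0011 (without cre heart 2) to 0.34 (without cre heart 1) for *Gata4*-deleted against cre hearts. *Bad* ranged from -0.016 to 0.038 for *Gata6*-deleted and *Bid* from -0.089 to 0.0062 for *Gata4*-deleted hearts against all controls. Of the other values of members, 500 under 10 alternatives and 313 without 1 heart kept direction and side of the threshold. With 1 heart left in a group, that heart is assumed to vary like the other groups.

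Counts of probesets called were 65 for *Gata4*-deleted against floxed hearts, 0 for *Gata6*-deleted against floxed, 6 for the difference of both changes, 384 for *Gata4*-deleted against *Gata6*-deleted, 295 and 142 for *Gata4*-deleted and *Gata6*-deleted against all controls, 139 and 183 against cre, 34 for cre against floxed and 81 for *Gata4* against *Gata6* floxed hearts. In that order of comparisons, naming only counts that moved by over 1.5 times, leaving out dim probesets gave 243, 601, 628, 228, 342, 290, 67 and 201 (the difference of changes and *Gata6* against floxed apart). The replicate block gave 14, 0, 234, 57, 84, 17, 102, 4 and 35 (*Gata6* against floxed apart). A trend and robust prior gave 161 for *Gata4* against floxed, 251 for *Gata4* against cre, 58 for cre against floxed and 138 between floxed lines. Only the groups compared gave 9, 0, 98, 154, 25, 17 and 8 up to *Gata6* against cre, and 13 between floxed lines. Only probesets with 1 symbol gave 237, 12, 580, 328, 64 and 190 for *Gata4* against floxed, the difference, *Gata4* against all controls, *Gata4* against cre, cre against floxed and between floxed lines, and the mean of a gene's probesets 232, 11, 531, 301 and 179 for the same without cre against floxed. The threshold of 0.1 gave 170, 668, 554, 350, 288, 67 and 177, without the difference and *Gata6* against floxed or all controls. Quantile normalization gave 2 for the difference. The methods' t-test gave 0 for *Gata4* against floxed, both deletions against each other, both against cre and both control comparisons, 57 for *Gata4* and 1 for *Gata6* against all controls, and was not run for the difference of changes, which is not a comparison of 1 pair of groups. Without 1 heart the counts were 10 to 35, 0 to 62, 0 to 63, 190 to 233, 55 to 447, 30 to 133, 13 to 74, 25 to 153, 4 to 13 and 21 to 383 in the order of all 10 comparisons. The cause of these shifts was not tested.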

Other observations

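Cell type markers passed in a comparison with *Gata4*-deleted hearts. *Acta2*, the smooth muscle actin, was higher than in all control hearts by 1.04 on the log2 scale (SE 0.17, adjusted p = 0.0284), where 0.83% of all probesets were called. The 7 smooth muscle and pericyte markers that include *Acta2* differed less. Their group mean was 9.05 in *Gata4*-deleted and 9.09 in *Gata6*-deleted hearts, against 8.91 in *Gata4* floxed, 8.81 in *Gata6* floxed and 8.83 in cre hearts. *Adgre1*, the macrophage marker F4/80, was lower than in *Gata6*-deleted hearts (log2 difference -0.76, SE 0.14, adjusted p = 0.0404), as was *Pf4*, a platelet chemokine also found in macrophages (log2 difference -0.53, SE 0.10, adjusted p = 0.0472). In that comparison 1.08% of all probesets were called. The 4 platelet markers that include *Pf4* averaged 5.47 to 5.51 in *Gata4*-deleted hearts and 5.42 to 5.68 in *Gata6*-deleted hearts. The platelet list thus overlapped between the deletions.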
